A study of Arabidopsis thaliana with 4 samples.

Results

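The genes described here encode xyloglucan endotransglucosylase/hydrolases (XTHs), enzymes that remodel the plant cell wall, and they were compared between gl3 egl3 double mutants and wild type Arabidopsis. The set holds the 8 genes XTH33, XTH16, XTH18, XTH32, XTH20, XTH21, XTH26 and XTH29, out of 13356 genes named on the Affymetrix ATH1 array and 33 XTH genes listed by locus. Each is read by 1 probe set that the platform annotation names by that gene alone. XTH19 met the same rule as a ninth gene and is described beside the set. The set was chosen from the values of this same comparison, because XTH33 had one of the highest differences on the array, so the differences of its members are given as a description and without p-values.

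The sample titles give green tissue for both groups, and the labels give an age of 20 days. The study's methods instead name whole tissue for wild type and green tissue for gl3 egl3. Whether the wild type samples held roots is thus not settled. Its results give green tissue, a younger age and more replicates for this comparison than the 2 arrays per group analysed here. Other passages of the study allow for 2 replicates. The 2 wild type samples are of the Landsberg erecta (Ler) accession. The 2 gl3 egl3 samples carry mutations in both GL3 and EGL3, whose bHLH products, together with the MYB factor GL1, switch on the formation of leaf hairs (trichomes), so that mutant leaves lack them. The alleles and the accession of the mutant are not stated in the sample titles, and no group received a treatment. Each sample was hybridised to 1 array, and the values are log2 expression values made with GCRMA, in which probe sets with little signal are drawn towards about the same low value. A value under 3 is taken as the low end of the scale. There, the spread is narrow and a difference carries little information.

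Xyloglucan is the main hemicellulose of the primary wall in dicots and lies on and between cellulose microfibrils. XTH enzymes cut its backbone and either join the new end to another xyloglucan chain or, in a few members, to water, so that they can loosen, rebuild or reinforce a wall during growth. The family is large, and its members are known for their distinct patterns in roots, stems, leaves and flowers. Since each sample is bulk tissue, fewer cells of a type and less RNA per cell cannot be told apart.

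The arrays were alike, with medians between 4.92 and 4.99 and a correlation between arrays from 0.985 to 0.992 over all probe sets, which are not independent replicates. EGL3 lay between 2.30 and 2.31 on every array, too low to serve as a check of the genotypes. GL3 was not analysed here. The trichome genes GL2, TTG2, TRY, ETC1 and MYB23 also lay at the low end on all arrays. The green tissue markers RCA, LHCB4.1 and PRK lay between 11.77 and 13.39, 3 measured of 10 listed. Of 10 root markers, 3 were measured: the root hair genes EXPA7 and EXPA18 lay between 2.15 and 2.16 on every array, and PYK10, a glucosidase gene of root and seedling, gave overlapping groups, at 10.04 and 11.04 in the mutant and at 10.75 and 10.64 in wild type.

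XTH33, XTH16 and XTH18 were higher in gl3 egl3 than in wild type by more than 2-fold, XTH32 was lower by more than 2-fold with a wide spread between the mutant arrays, and XTH20, XTH21, XTH26 and XTH29 had values at the low end on every array. Over the array, 1.25% of the 22746 probe sets were more than 2-fold higher and 1.7% more than 2-fold lower. All 4 values of 4 members were under 3, against 35.2% of all probe sets. The highest value among these members was 2.49, in XTH20, and the lowest value among the other 4 was 4.26, in XTH32.

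**Figure D1:**
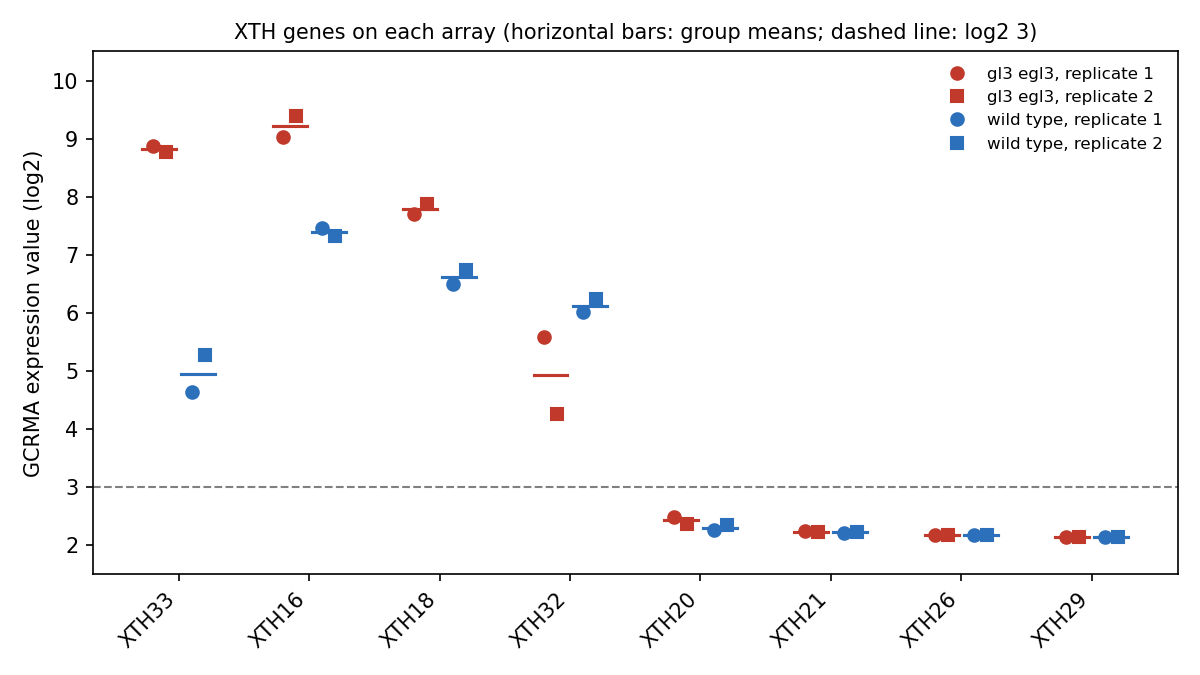
GCRMA expression value (log2, y axis) of the 8 XTH genes (x axis) on each of the 4 arrays. Points are arrays, horizontal bars are group means and the dashed line marks log2 3. The gl3 egl3 arrays of XTH33 sit at 8.88 and 8.76 and its wild type arrays at 4.64 and 5.27, while 4 genes lie under 3 on every array.

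XTH33 (AT1G10550) encodes a member of the family whose protein is predicted to span a membrane, unlike the typical secreted XTH. Its log2 value was 8.88 and 8.76 on the gl3 egl3 arrays, and 4.64 and 5.27 on the wild type arrays. The lower mutant array was thus 3.49 above the higher wild type array. The means were 8.82 ± 0.08 and 4.96 ± 0.44 (SD, n = 2 each), so XTH33 differed by 3.86 on the log2 scale (SE 0.28), or 14.6-fold. By the size of its difference XTH33 ranked 3 among the 22746 probe sets, counting from the highest. Most of its spread lay in the wild type, where the arrays were 0.63 apart. Of the 11298 probe sets with a mean of 5 or more, 9.14% had wild type arrays as far apart, and the median distance was 0.21. No wild type value lay under 3. After 16 was added to each value before the logarithm, which damps differences of dim probe sets, the difference was 3.31.

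XTH16 (AT3G23730) belongs to the larger clade of the family, which holds the typical endotransglucosylases. It stood at 9.04 and 9.40 in gl3 egl3 and at 7.47 and 7.32 in wild type. Both mutant arrays lay above both wild type arrays, with a gap of 1.57. The means were 9.22 ± 0.26 and 7.39 ± 0.11 (SD, n = 2 each), which gives a log2 difference of 1.82 (SE 0.17), or 3.54-fold. This difference ranked 52 among all probe sets.

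XTH18 (AT4G30280) is closely related to XTH17, XTH19 and XTH20, genes known mainly from roots. Its values were 7.71 and 7.88 in gl3 egl3 against 6.49 and 6.74 in wild type. The groups did not overlap and lay 0.97 apart, several times the distance between arrays of 1 group. The log2 difference was 1.18 (SE 0.13), or 2.26-fold, from means of 7.80 ± 0.12 and 6.62 ± 0.18 (SD, n = 2 each). It ranked 187 among all probe sets, and of the 3 members that were higher by this much it was the one nearest to the 2-fold limit. The next lower difference in the set was that of XTH20, at 0.13.

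XTH32 (AT2G36870) belongs to a small clade with XTH31, an enzyme that hydrolyses xyloglucan in vitro. It was the 1 member with a lower mean in gl3 egl3 among those above the low end. The mutant arrays read 5.59 and 4.26, and the wild type arrays 6.01 and 6.24. The groups did not overlap, but the mutant arrays were 1.33 apart, and only 1.28% of the probe sets with a mean of 5 or more had mutant arrays as far apart. The means were 4.93 ± 0.94 and 6.12 ± 0.16 (SD, n = 2 each), and the log2 difference of -1.20 had an SE of 0.59. Its size rested on gl3 egl3 replicate 2: without that array the difference was -0.53, and without gl3 egl3 replicate 1 it was -1.86.

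The other members had little signal in this tissue. XTH20 (AT5G48070), which is also known from the healing of cut stems, was at 2.49 and 2.37 in gl3 egl3 and at 2.25 and 2.35 in wild type. XTH21 (AT2G18800), a gene linked to root growth, ranged from 2.22 to 2.24 over the 4 arrays. XTH26 (AT4G28850), an XTH of root hairs, was at 2.17 on each array, and XTH29 (AT4G18990), whose protein reaches the wall by an unusual secretion route, at 2.15. The mutant values of XTH20, XTH21 and XTH26 lay above the wild type values, by gaps of 0.02 or less, whereas the groups of XTH29 overlapped. At such values the array gives no level for these genes in either group.

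Counted over the set, 6 of 8 members had both mutant arrays above both wild type arrays, among them 3 at the low end, against 38.1% of all probe sets. Of the 4 members above the low end, 3 did so, where the share was 28.7% of the 13655 probe sets with no value under 3. In 1 member both mutant arrays lay below, against 12.7%. The median log2 difference was 0.07 over the 8 members and 0.01 over all probe sets. It was 1.5 over the 4 members above the low end and 0.04 over probe sets with a mean of 5 or more. These counts hold the value by which the set was chosen and say nothing further about the family.

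**Figure D2:**
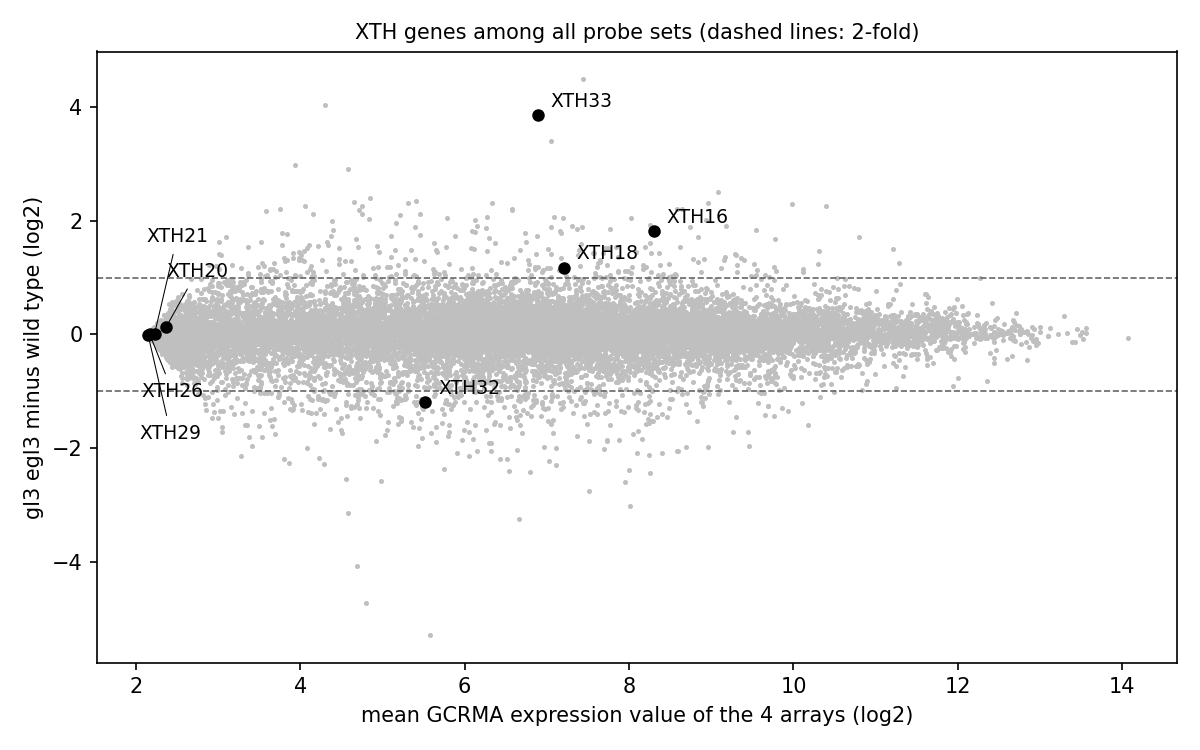
Difference between groups (gl3 egl3 minus wild type, log2, y axis) against the mean of the 4 arrays (log2, x axis) for 22746 probe sets in grey, with the 8 XTH genes in black. Dashed lines mark 2-fold. XTH33 stands at 3.86, far from most probe sets, XTH16 at 1.82, XTH18 at 1.18 and XTH32 at -1.20.

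Across the array, limma called 0% of the 22746 probe sets at an adjusted p under 0.05, so that 0 of the 8 members passed. The smallest limma adjusted p was 0.0769, and 2117 probe sets had an unadjusted p under 0.05.

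XTH19 (AT4G30290), the annotated ninth XTH gene, lies next to XTH18 in the order of genes on the chromosome, with XTH24 on the other side of XTH18. The mutant arrays read 7.26 and 7.68, and the wild type arrays 6.90 and 7.68, so the groups overlapped. The log2 difference was 0.18 (SE 0.39), with a limma adjusted p of 0.939. Its sign turned when 1 array was left out, to -0.21 without wild type replicate 1 and to -0.04 without gl3 egl3 replicate 2. The adjacent genes XTH18 and XTH19 thus gave differences of 1.18 and 0.18, and the difference between these values was not tested. The identifiers of the 8 probe sets end in _at, and 0 carry the mark of a set that shares probes with other genes, but transcripts as alike as those of XTH17 to XTH20 may still bind in part to each other's probes.

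Other genes of xyloglucan metabolism were listed by role. Of 44 genes listed, 7 were measured through a named probe set: XTH19, XTH27 and 5 glucan synthases of the CSLC family, which make the xyloglucan backbone. The xylosyl, galactosyl and fucosyl transferases that build the side chains, the acetylation genes and the 4 glycosidases that trim the polymer were not analysed here, nor were 23 further XTH genes. None of the 7 passed the limma threshold. At an unadjusted limma p under 0.01, the level the study used, there were 0 as well, against 2.03% of all probe sets higher and 1.22% lower in gl3 egl3. CSLC4 was under that level with the replicate block, with arrays centred on their medians and among probe sets with a mean of 5 or more only, and CSLC12, at the low end, without wild type replicate 1. The mean was higher in gl3 egl3 for 5 of the 7 genes, with a median log2 difference of 0.18. Most probe sets of the array also had a higher mean in gl3 egl3. MYB23, with a log2 difference of 0.0004, ranked 14246 from the highest among the 22746 probe sets. The count of 5 therefore says little about these genes.

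XTH27, named EXGT-A3 on the array, is known from the formation of leaf veins. It was at 11.98 and 12.11 in gl3 egl3 and at 11.55 and 11.76 in wild type, so the groups did not overlap. Its log2 difference was 0.39 (SE 0.11), with a limma adjusted p of 0.518 that ranged from 0.367 to 0.733 under the other settings.

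CSLC4, the main backbone synthase gene of growing tissue, had the largest difference of the 7. The mutant arrays read 8.18 and 7.91, and the wild type arrays 7.33 and 7.09, again without overlap. The log2 difference was 0.84 (SE 0.16), or 1.79-fold, with a limma adjusted p of 0.392 that ranged from 0.196 to 0.679 under the other settings. CSLC6 was at 5.04 and 5.01 against 4.92 and 4.70, a difference of 0.21 (SE 0.10). XTH27, CSLC4 and CSLC6 thus had both mutant arrays above both wild type arrays. Of all probe sets with no value under 3, 28.7% did so. CSLC8 and CSLC12 lay under 3 on every array. CSLC5 lay there on 3 of 4 arrays and at 3.23 in wild type replicate 1, so that the directions of these 3 genes say little.

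**Figure D3:**
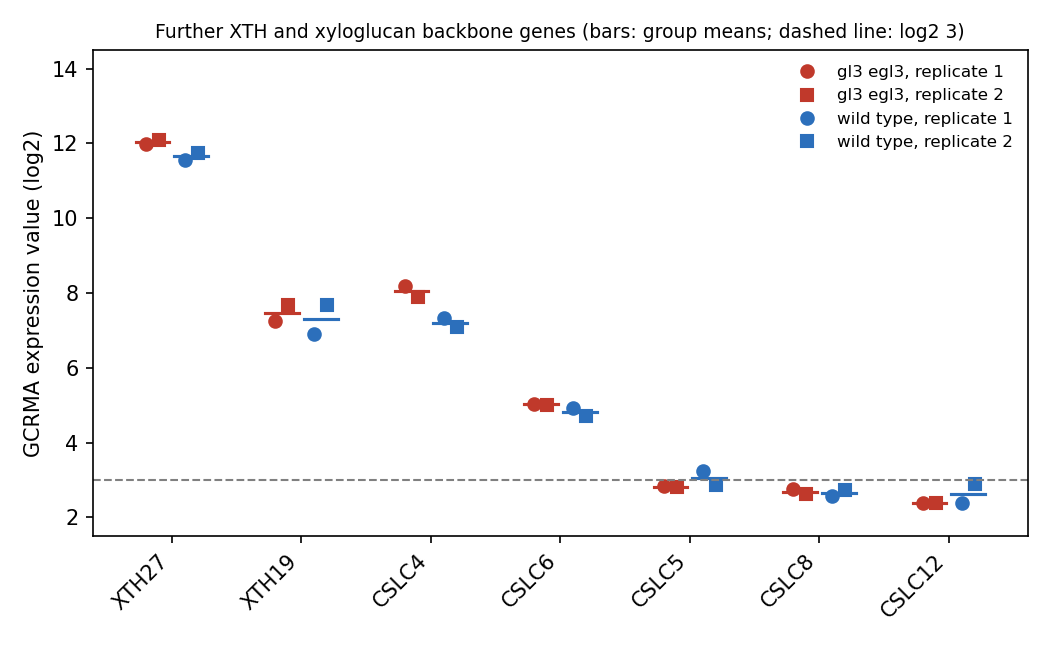
GCRMA expression value (log2, y axis) of 2 further XTH genes and 5 CSLC genes (x axis) on each of the 4 arrays. Points are arrays, horizontal bars are group means and the dashed line marks log2 3. The gl3 egl3 arrays lie above the wild type arrays for XTH27, CSLC4 and CSLC6 and overlap with them for XTH19.

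Among the named genes searched, those whose values over the 4 arrays were most like those of XTH33 were AT4G31000, THE1 and AT5G50915. Likeness was taken as the Euclidean distance between the 4 log2 values, each set against its probe set's own mean, among 5959 other genes with a mean of 5 or more. The distances were 1.81 for AT4G31000, 1.88 for THE1 and 1.89 for AT5G50915. THE1 encodes THESEUS1, a receptor kinase that senses the state of the cell wall. It was at 9.80 and 10.08 in gl3 egl3 and at 7.76 and 8.08 in wild type, a difference of 2.02. AT4G31000 was at 6.09 and 6.44 against 4.05 and 4.26, and AT5G50915 at 7.54 and 7.83 against 5.76 and 5.19, which gives differences of 2.11 and 2.21. All 3 were thus higher in gl3 egl3 without overlap, as the choice by likeness to XTH33 entails, and by less than XTH33. A function is given here for THE1 only, and likeness over 4 arrays does not show a shared role.

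**Figure D4:**
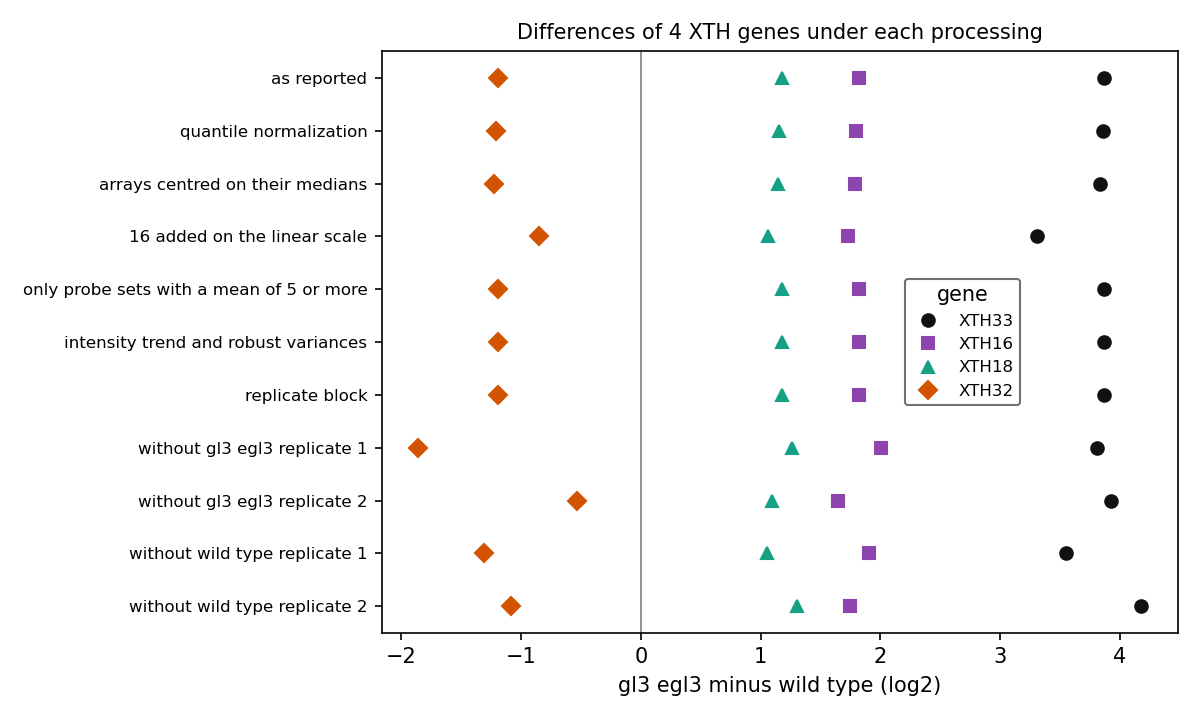
Log2 difference between gl3 egl3 and wild type (x axis) of the 4 XTH genes above the low end, as reported and under each other processing or with 1 array left out (y axis). XTH33 runs from 3.31 to 4.18 and XTH32 from -1.86 to -0.53, and XTH16 and XTH18 stay between 1.05 and 2.01.

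Since the groups of the 4 members above the low end do not overlap, leaving out an array or adding 16 could change the size of a difference but not its direction. Over these settings and the other scalings, the difference of XTH16 ran from 1.64 to 2.01 and that of XTH18 from 1.05 to 1.30. That of XTH33 ran from 3.31 with 16 added on the linear scale to 4.18 without wild type replicate 2.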

How the data were processed

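Expression was measured in 4 samples, each hybridised to 1 ATH1 array from amplified, biotin-labelled cDNA. The deposited values are log2 values per probe set, which the authors made from the array images with GCRMA (sequence-based background correction, quantile normalization, median polish) through AffylmGUI. No version is named in the paper or the labels, nor whether other arrays were normalized with these. From the 22810 rows, 64 array controls were left out. Annotation gave 13513 probe sets 1 gene symbol, 503 several and 8730 none, and 13436 of the first were matched to RefSeq (TAIR10.1) by gene number. A further 5 listed trichome genes were named from the study's gene list. Each gene was represented by its probe set with the highest mean.

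The mutant was set against wild type in limma 3.58.1 under R 4.3.3 (lmFit, eBayes, two-sided) on all 4 arrays without covariates, with Benjamini-Hochberg adjustment over 22746 probe sets. There were 2 residual and 0.623 prior degrees of freedom, and the number of arrays limits the precision. Per the study's methods, replicates came from independent plant material. The fit was tested on simulated data. The members and gene lists were chosen with earlier results of these data known. The text names all members, the measured xyloglucan genes, the markers, the 3 genes most like XTH33 among those searched, and AT2G41590. Alternatives were other scaling, 16 added on the linear scale, a filter at a mean of 5, an intensity trend, a block for the replicate number, the methods' t-test, each array left out, and a low-end limit of 4. No sequences were analysed here.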

Additional observations from a re-analysis of the deposited data

How the results depend on the processing

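The count of probe sets, of XTH members and of xyloglucan genes past the adjusted threshold was 0 under each setting run, which says nothing about stability since no probe set passed anywhere. The count of members more than 2-fold higher was 3 under each setting in which it was taken, and it was not taken for the methods' t-test. The filter, the intensity trend and the replicate block leave these differences unchanged, so the count could not move there. At the low end lay 4 members with a limit of 4 as well. The difference of XTH33 was 3.31 with 16 added on the linear scale, which shrinks differences of dim probe sets by its construction, and ranged from 3.55 to 4.18 when 1 array was left out. At the unadjusted limit of 0.01, the higher count was 289 with the filter, where fewer were tested, 259 with an intensity trend and 205 with the methods' t-test, which also gave 118 lower. With 1 array left out the lower count ranged from 175 to 905. It was lowest when gl3 egl3 replicate 2 was dropped, highest for wild type replicate 1, and 676 for wild type replicate 2. The cause was not tested. In these fits the single array left in a group takes its spread from the other one. With arrays centred on their medians, the split was 439 higher and 398 lower, against 462 and 278 as reported. The labels give no pairing. Same-numbered samples deviated together with a correlation of 0.134 across probe sets. With the replicate block, 363 were higher and 278 lower, and 0 passed the adjusted threshold. Each member has 1 probe set, so a mean over probe sets gives no other value.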
